A study of Solanum tuberosum with 9 samples.

Results

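WRKY transcription factors are a large family of plant regulators named for the WRKYGQK peptide of their DNA-binding domain, which is followed by a zinc finger. They bind the W-box, a promoter element with the core TTGAC, and many members bind the promoters of other members, so that the family forms a network with feedback. In leaves they are best known for the response to pathogens, for signalling by salicylic acid and jasmonic acid, and for senescence. Family members are sorted into group I, which has a pair of WRKY domains, group II with its subgroups IIa to IIe, and group III, which has a different zinc finger. Members were chosen by product name: any gene listed in the A’ vs. B’ or the A’ vs. F’ comparison group whose product contains the words WRKY transcription factor. This gave 61 genes of 24169 in all. Of these, all 61 were listed in A’ vs. F’ and 60 also in A’ vs. B’.

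The series is about potato plants whose leaf extracts differ in their effect on the growth of mustard seedlings while all of them hold much glycoalkaloid, the bitter steroidal toxin of this genus. The plants were untreated siblings of the diploid population 15-1, whose parents are DG 88-89, a diploid Solanum hybrid, and the wild species S. chacoense, and they were grown in a greenhouse until full anthesis, when leaves were taken. Bulk sample A’ came from individuals of high phytotoxicity, B’ from individuals of low phytotoxicity, and F’ from individuals whose extracts stimulated mustard growth (hormesis in the labels). Each bulk was a mixture of the ground leaves of 3 individuals, and 3 libraries of each bulk were sequenced, 9 libraries in all. How the 3 libraries arose is not stated, so that p-values measure only the spread between libraries, which may be technical, and a bulk of so few plants may differ from another by the plants alone. In such bulk tissue, fewer cells of a type and less RNA per cell cannot be told apart.

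The libraries held from 21199110 to 22517178 counts. The leaf was checked by 39 genes of the RuBisCO small chain and the chlorophyll a-b binding proteins, none of which was at 0 in all libraries. Their summed normalized count was between 2833941 and 3651324 in the A’ libraries, between 1577720 and 1887198 in the B’ libraries, and between 2101969 and 2533909 in the F’ libraries. Seed storage proteins were near 0, at 2.8 to 19.0 normalized counts summed over 4 genes, while 14 patatin genes summed to between 2387 and 5242 and 14 genes with pollen-specific or anther-specific products to between 3453 and 4447. In each group, 1 library differed more from the other pair than these differed from each other, by the chi-square of their counts per degree of freedom. In A’ this was library 1 (14.5 and 21.97, against 6.56 for the other pair), in B’ it was library 3 (22.1 and 33.5, against 7.20), and in F’ it was library 2 (23.6 and 24.9, against 6.55). B’ 3 also had the highest patatin sum. Results without these libraries are given beside the counts.

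Of the 61 WRKY genes, 20 had no chromosome listed, 7 were listed on chromosome 2 and 6 on chromosome 8. The rest were listed on 9 other chromosomes with between 1 and 5 members each. A gene without a listed chromosome can share its scaffold with a gene that has one, as LOC102578409 does on chromosome 5, so the numbers per chromosome are minimum numbers. Several product names were shared by many loci. There were 5 loci named WRKY40, 4 named WRKY41, and 3 each named WRKY51, WRKY53 and WRKY71. Some of these copies were neighbours with no other listed gene between them: a pair of WRKY40 loci on chromosome 8, 16.4 kb apart, a pair of WRKY53 loci on chromosome 8, 10.9 kb apart, and 3 WRKY41 loci on chromosome 5 with gaps of 2.7 and 19.3 kb. The counting may have divided reads between such similar copies, so values of single copies are less certain than those of genes with a name of their own. Structural groups were read from the Arabidopsis number in the product name, because protein sequences were not used here. This put 14 genes in group I, 5 in IIa, 5 in IIb, 11 in IIc, 6 in IId, 5 in IIe and 11 in group III. The other 4 genes carry potato numbers that do not follow Arabidopsis and were left without a group.

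WRKY transcripts were more abundant in B’ than in A’ or F’. Normalized counts, which are raw counts set to a common library size, were summed over the 60 members listed in both comparisons. The sum was 21790, 23833 and 24257 in the A’ libraries, 39331, 41728 and 51965 in the B’ libraries, and 24198, 23087 and 24276 in the F’ libraries. All B’ libraries were above all A’ and F’ libraries, and the A’ and F’ libraries overlapped. The mean was 23293 ± 1319 (SD, n = 3) in A’, 44341 ± 6710 in B’ and 23854 ± 665 in F’. B’ was thus 1.90-fold above A’ (two-sided exact permutation test, p = 0.1, the lowest that 3 libraries against 3 can give), F’ was 0.54-fold of B’ (p = 0.1 in the same exact test), and F’ was 1.02-fold of A’ (exact p = 0.6). The sum of the leaf genes given above was lower in all B’ libraries than in all A’ and F’ libraries, and its part in the WRKY difference was not tested.

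A few genes carried most of the added WRKY transcripts in B’. The potato gene listed as WRKY6 (LOC102577893) made up 17.2% of the net difference between the B’ and A’ sums, WRKY70 (LOC102581335) made up 16.5%, and the WRKY40 loci LOC102580885 and LOC102600986 made up 10.3% and 8.7%. Together these 4 genes accounted for 52.7%. These are shares of counts, which were not corrected for transcript length.

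**Figure D1:**
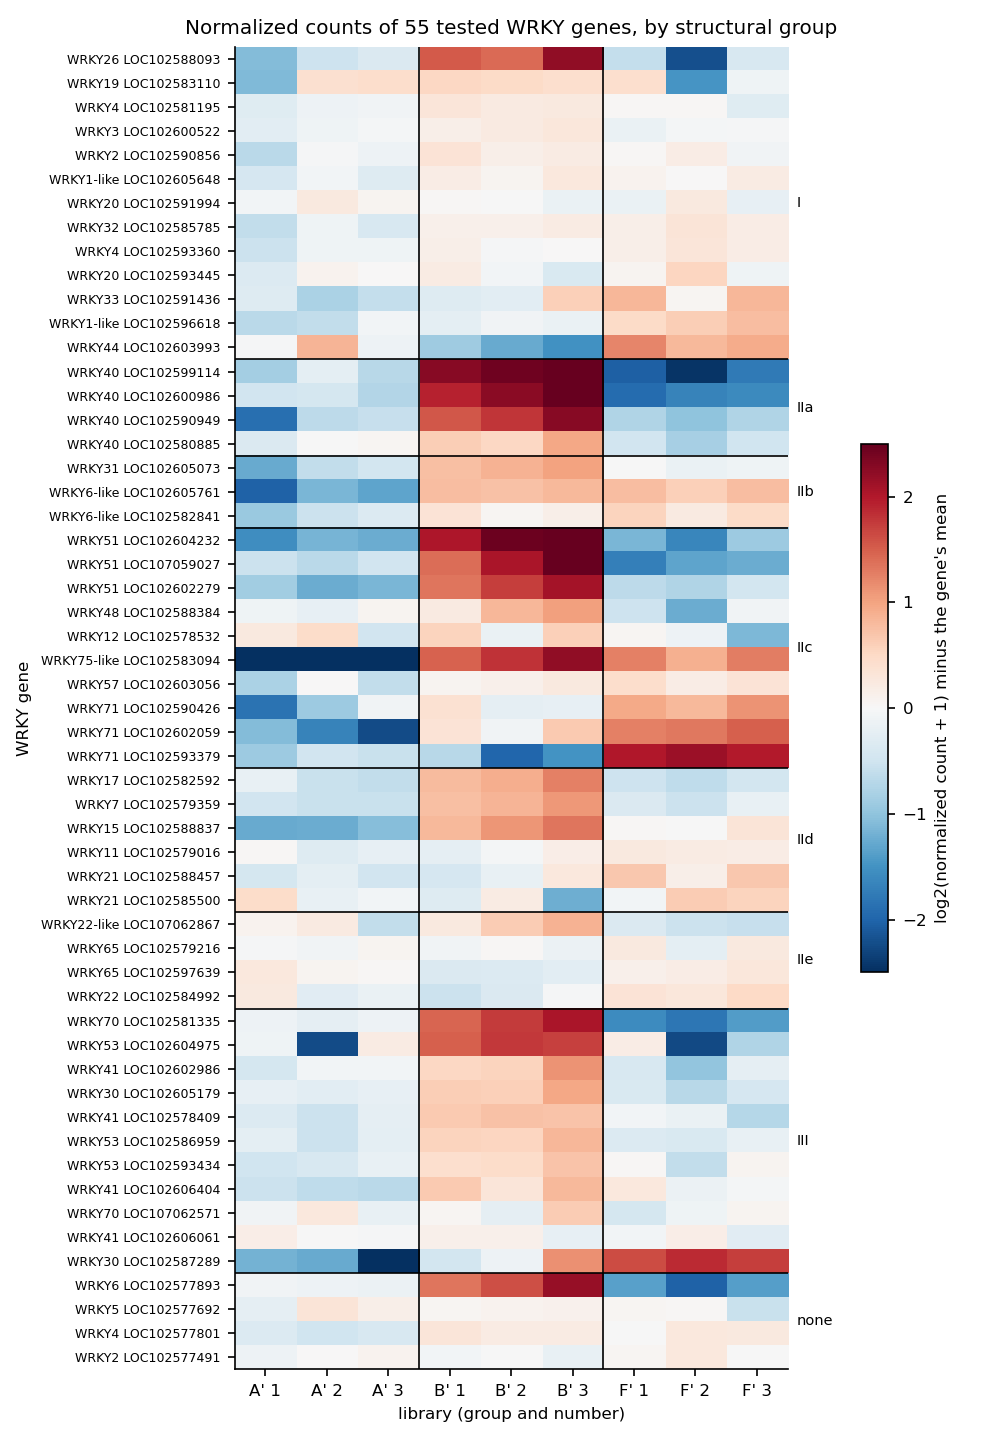
Color map of log2(normalized count + 1) minus the mean of the gene over 9 libraries, for the 55 WRKY genes tested in at least 1 comparison (rows, in structural groups) and the 9 libraries (columns). Red is above and blue is below the mean of the gene, and colors are capped at 2.5 on the log2 scale. The WRKY40 rows of group IIa and the WRKY51 rows of group IIc are red in the B’ columns and blue in the A’ and F’ columns. An exception is WRKY40 LOC102580885, which is near its mean in A’ 2 and A’ 3. The 3 WRKY71 rows are darkest red in the F’ columns.

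In the A’ vs. B’ comparison group, which asks which WRKY genes differ between plants of high and low phytotoxicity, 52 of the members had enough counts to be tested. The test was edgeR’s quasi-likelihood test over all genes, with Benjamini-Hochberg adjusted p-values (FDR). A’ was the control, and a positive Log2FC means more transcripts in B’. There were 30 WRKY genes higher in B’ with an FDR under 0.05 (57.7% of those tested, against 16.4% of all genes tested), 2 lower (3.8% against 16.5%) and 20 that did not pass. The median Log2FC of the WRKY genes tested was 0.72, against 0.02 over all genes tested. With the cutoff of a Log2FC of 2 in addition, 11 WRKY genes were higher (21.2% against 2.11%) and 0 were lower (against 1.30% of all genes). In either direction, 32.9% of all genes were called and 3.41% passed the cutoff. For 36 WRKY genes (69.2% against 23.7%), the B’ libraries were all above the A’ libraries. For 2 (3.8% against 23.6%), they were all below.

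Library B’ 3 was the highest of the B’ libraries for 24 of the 30 WRKY genes called higher (80.0%), while this held for 55.1% of all 3125 genes called higher in B’. The ratio of B’ 3 to the mean of B’ 1 and B’ 2 had a median of 1.29 over these WRKY genes and of 1.09 over all genes called higher. For the same 30 genes, A’ 3 was the highest of the A’ libraries in 15 (against 25.8% of all genes tested) and F’ 3 the highest of the F’ libraries in 18 (against 30.1%). Without library B’ 3, 30 of 52 WRKY genes were higher and 2 were lower (57.7% and 3.85%, against 16.4% and 17.0% of all genes, shares added after the data were seen). Without A’ 1, 27 were higher and 2 were lower (shares of all genes are not given for this fit).

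Plants that stimulated mustard growth were set against those of high phytotoxicity in the A’ vs. F’ comparison group, where 54 WRKY genes were tested. There were 19 higher in F’ (35.2%, against 17.5% of all genes tested), 6 lower (11.1% against 18.2%) and 29 that did not pass. The median Log2FC was 0.17, against 0.03 over all genes. At the cutoff of a Log2FC of 2, 5 genes were higher (9.3% against 1.70%) and 0 were lower (against 1.86%). In either direction, 35.6% of all genes were called and 3.56% passed the cutoff. All F’ libraries were above all A’ libraries for 21 WRKY genes (38.9% against 23.8%) and below for 7 (13.0% against 23.9%). Without A’ 1, 15 WRKY genes were higher and 6 were lower, and without F’ 2, 20 were higher and 6 were lower (shares of all genes are not given for these fits).

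The direct test of B’ against F’, with B’ as the control, covered 55 WRKY genes. There were 23 lower in F’ (41.8%, against 16.3% of all genes tested), 7 higher in F’ (12.7% against 13.7%) and 25 that did not pass, with a median Log2FC of −0.35 against 0.00 over all genes. At the cutoff, 10 genes were lower in F’ (18.2% against 2.18%) and 2 were higher (3.6% against 1.31%), which makes 12 WRKY genes in either direction (against 3.48% of all genes). Of all genes, 30.0% were called in either direction. All F’ libraries were below all B’ libraries for 28 WRKY genes (50.9% against 23.0%) and above for 10 (18.2% against 21.3%). Without library B’ 3, 21 WRKY genes were lower in F’ (38.2% against 17.2% of all genes) and 10 were higher (18.2% against 15.4%). Without F’ 2, 21 were lower and 6 were higher (shares of all genes are not given for this fit). The 3 comparisons share their libraries pairwise and are not independent of each other, so each is given by its own values below.

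**Figure D2:**
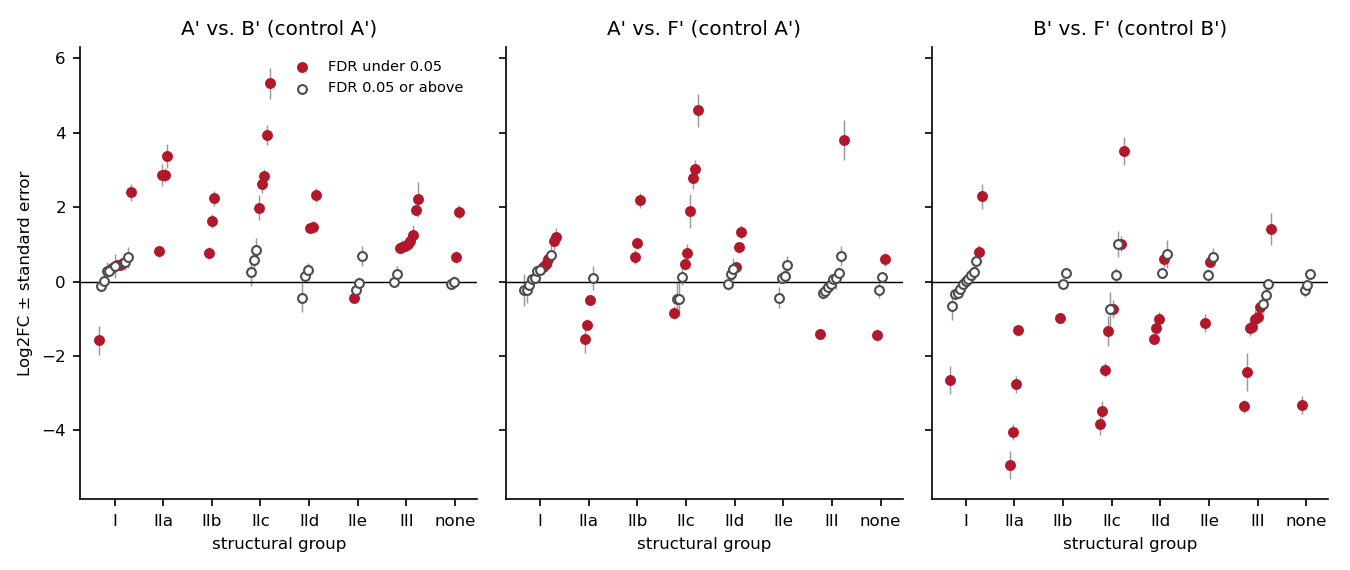
Log2FC of each WRKY gene tested (points) with its standard error (bars), by structural group on the horizontal axis, in the 3 comparisons; filled points have an FDR under 0.05 in edgeR’s quasi-likelihood test. In A’ vs. B’ all filled points but 2 lie above 0, and in B’ vs. F’ the lowest points belong to groups IIa, IIc and III.

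Group IIa consists here of the WRKY40 loci, most of which had their highest counts in B’ and their lowest in F’. In Arabidopsis, WRKY40 acts with its close relatives WRKY18 and WRKY60 in basal defence and in abscisic acid signalling. Of the 5 loci, 4 were tested. All 4 were higher in B’ than in A’, with a median Log2FC of 2.87, 3 of them were lower in F’ than in A’, and all 4 were lower in F’ than in B’, with a median Log2FC of −3.41. Of all genes, 16.4% were higher in B’ than in A’, 18.2% lower in F’ than in A’, and 16.3% lower in F’ than in B’.

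The WRKY40 locus LOC102600986 lies between positions 542162 and 544564 of a scaffold of chromosome 8 (assembly SolTub_3.0). Normalized counts of 307, 312 and 255 were found in A’, of 1614, 2030 and 2724 in B’, and of 112, 133 and 141 in F’. The groups did not overlap, with B’ the highest and F’ the lowest. The Log2FC was 2.87 (standard error 0.191, FDR 1.1e-06) in A’ vs. B’, −1.17 (standard error 0.148, FDR 3.48e-05) in A’ vs. F’, and −4.05 (standard error 0.207, FDR 1.57e-06) in B’ vs. F’. Its neighbour LOC102599114, at positions 560932 to 563099 of the same scaffold, had the same order of groups. It had 24.6, 38.1 and 27.6 normalized counts in A’, 222, 248 and 465 in B’, and 10.3, 7.45 and 12.6 in F’. It had a Log2FC of 3.37 (standard error 0.316, FDR 1.25e-05) in A’ vs. B’, −1.55 (standard error 0.366, FDR 0.00457) in A’ vs. F’ and −4.93 (standard error 0.368, FDR 9.56e-06) in B’ vs. F’. This was the lowest Log2FC of a WRKY gene in any of the 3 comparisons. The reads of such a neighbouring pair could have been shared between its copies.

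The WRKY40 locus of the highest count, LOC102580885, lies between positions 1059879 and 1061984 of a scaffold of chromosome 6. Normalized counts were 2423, 3086 and 3217 in A’, 4753, 4460 and 6030 in B’, and 2222, 1731 and 2200 in F’. Here too the groups did not overlap, but the differences were smaller than those of the other copies. The Log2FC was 0.81 (standard error 0.153, FDR 0.00182) in A’ vs. B’, −0.49 (standard error 0.142, FDR 0.0153) in A’ vs. F’ and −1.32 (standard error 0.151, FDR 0.00013) in B’ vs. F’. Without library A’ 3 the A’ vs. F’ value was −0.42 and did not pass (FDR 0.0837). This call was also lost in the test against a Log2FC of 1 and at the FDR threshold of 0.01. Over the other alternatives the FDR ranged from 0.00305 to 0.0837. LOC102590949, the WRKY40 locus on chromosome 3 (positions 45278 to 47885 of its scaffold), had 19.9, 47.9 and 50.6 normalized counts in A’, 226, 266 and 369 in B’, and 44.8, 37.3 and 44.4 in F’. Only B’ stood apart, and the A’ and F’ libraries overlapped. The Log2FC was 2.86 (standard error 0.291, FDR 2.31e-05) in A’ vs. B’ and −2.77 (standard error 0.218, FDR 1.24e-05) in B’ vs. F’. In A’ vs. F’ it was 0.11 (standard error 0.32, FDR 0.825), and it was −0.22 without library A’ 1. The remaining WRKY40 locus, LOC102582725, had at most 6 counts in a library and was not tested.

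**Figure D3:**
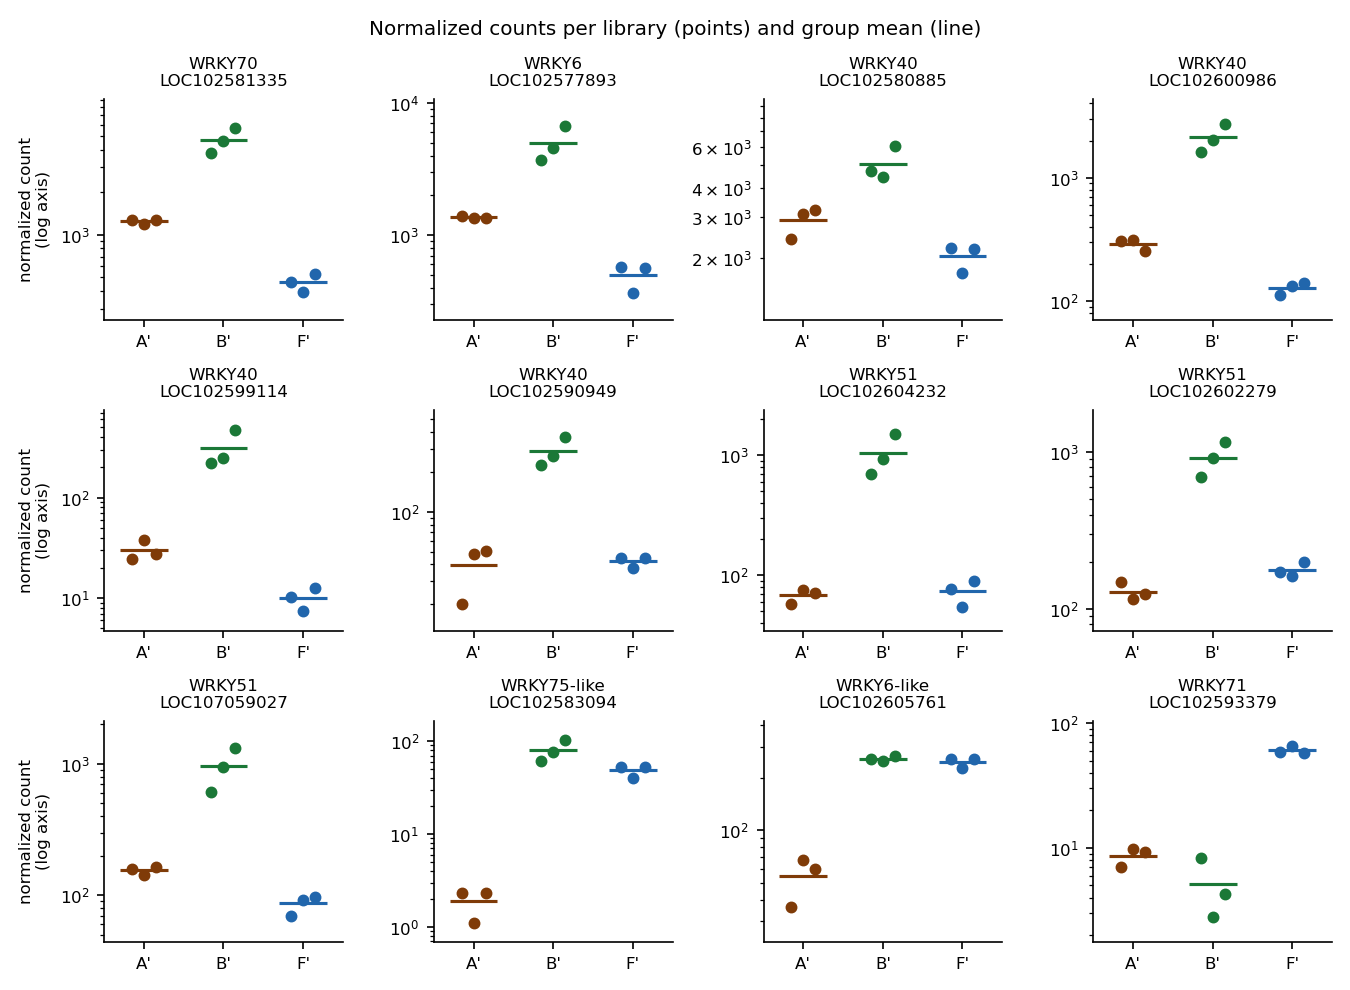
Normalized counts of 12 WRKY genes in each library (points, log axes, the range differs between panels) with the mean of the group (lines), 3 libraries each of A’, B’ and F’. WRKY70, WRKY6 and the WRKY40 loci LOC102580885, LOC102600986 and LOC102599114 have every B’ library above and every F’ library below the A’ libraries, WRKY75-like and WRKY6-like are lowest in A’, and the WRKY71 locus LOC102593379 is highest in F’.

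WRKY70 stands at the node between salicylic acid and jasmonic acid signalling in Arabidopsis, where it promotes the former. The potato locus LOC102581335 lies between positions 904941 and 907440 of a scaffold of chromosome 3. It had 1274, 1193 and 1275 normalized counts in A’, 3793, 4630 and 5706 in B’, and 467, 397 and 526 in F’. Every B’ library was above, and every F’ library below, all A’ libraries. The Log2FC was 1.93 (standard error 0.153, FDR 3.7e-06) in A’ vs. B’, −1.42 (standard error 0.126, FDR 1.31e-06) in A’ vs. F’ and −3.35 (standard error 0.178, FDR 1.64e-06) in B’ vs. F’, so that mean counts of B’ and F’ stood at 4710 and 463. The other WRKY70 locus, LOC107062571, had between 73.8 and 156 normalized counts, its groups overlapped, and it did not pass in any comparison. Its Log2FC was 0.19 in A’ vs. B’ (FDR 0.567).

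Other genes of group III, to which WRKY70 belongs, were also higher in B’. Of its 10 members tested in A’ vs. B’, 8 were higher and 0 were lower, against 16.4% and 16.5% of all genes. The median Log2FC was 0.98. Against A’, F’ had 1 higher gene and 1 lower gene of 10 tested, with a median of −0.01, against 17.5% and 18.2% of all genes. In B’ vs. F’, 7 of 11 were lower in F’ and 1 was higher, against 16.3% and 13.7% of all genes. WRKY53 is a regulator of leaf senescence in Arabidopsis. Its 3 loci were all higher in B’, at Log2FC of 0.90 (LOC102593434, FDR 0.000353), 1.00 (LOC102586959, FDR 0.000176) and 2.21 (LOC102604975). The last of these, at positions 967854 to 972016 of a scaffold of chromosome 8, had few reads, with raw counts of 7, 1 and 9 in A’, 29, 35 and 36 in B’, and 11, 1 and 5 in F’. The B’ libraries were above the others, and the A’ and F’ libraries overlapped. Its Log2FC had a standard error of 0.478 (FDR 0.00432) in A’ vs. B’, and it was −2.43 (standard error 0.512, FDR 0.00527) in B’ vs. F’. Counts were too low for the test in A’ vs. F’.

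The WRKY41 loci, close relatives of WRKY53, differed among themselves although 3 of them are neighbours. LOC102606404 (Log2FC 1.26, FDR 0.00237) and LOC102578409 (1.09, FDR 0.00293) were higher in B’ than in A’. LOC102606061, which lies between them, had 280 to 382 normalized counts over the 9 libraries and a Log2FC of −0.01 (FDR 0.939). The WRKY41 locus of the highest count, LOC102602986 on chromosome 1, was again higher in B’ (Log2FC 0.94, FDR 0.00165) and lower in F’ than in B’ (−1.26, FDR 0.00173). One group III gene had its highest counts in F’. WRKY30 (LOC102587289), at positions 1066937 to 1068536 of a scaffold of chromosome 3, had raw counts of 3, 3 and 0 in A’, 7, 9 and 25 in B’, and 33, 34 and 34 in F’. The 3 groups did not overlap, with A’ the lowest. From 6 and 101 counts summed over the libraries, F’ was 14.6-fold above A’, with a 95% interval of 6.48 to 40.7 that covers counting error only. A Log2FC of 3.81 was fitted (standard error 0.53, FDR 7.88e-05) in A’ vs. F’ and 1.42 (standard error 0.429, FDR 0.0304) in B’ vs. F’. The call in B’ vs. F’ was lost, with Log2FC between 1.13 and 1.47, when B’ 1, B’ 2 or any F’ library was left out (FDR 0.0687 to 0.116). Over all alternatives but the test against a Log2FC of 1, its FDR ranged from 0.00167 to 0.116.

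Group IIc held the largest Log2FC of the family in both comparisons with A’. Of 8 genes tested in A’ vs. B’, 5 were higher and 0 were lower, against 16.4% and 16.5% of all genes (median Log2FC 2.31). Of 10 tested in A’ vs. F’, 6 were higher and 1 was lower, against 17.5% and 18.2% of all genes (0.62). In B’ vs. F’, 5 of 10 were lower in F’ and 2 were higher, against 16.3% and 13.7% (−0.74). Within the group, the WRKY51 loci had their highest counts in B’ and the WRKY71 loci in F’.

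WRKY51 represses jasmonic acid responses in Arabidopsis when salicylic acid signalling is active. All 3 potato loci were higher in B’ than in A’ and lower in F’ than in B’. LOC102604232 (positions 212330 to 215417 of a scaffold of chromosome 4) had 57.4, 75.1 and 71.3 normalized counts in A’, 694, 935 and 1497 in B’, and 76.6, 54.3 and 89.8 in F’. B’ stood above every other library, and A’ and F’ overlapped. The Log2FC was 3.94 (standard error 0.277, FDR 1.61e-06) in A’ vs. B’, −3.82 (standard error 0.298, FDR 1.17e-05) in B’ vs. F’ and 0.13 (standard error 0.231, FDR 0.697) in A’ vs. F’, where it was −0.05 without library F’ 3. LOC102602279 (positions 987170 to 989201 of its scaffold, chromosome not listed) had 149, 115 and 124 in A’, 692, 913 and 1160 in B’, and 173, 162 and 199 in F’. It had a Log2FC of 2.84 (standard error 0.197, FDR 1.45e-06) in A’ vs. B’ and −2.38 (standard error 0.19, FDR 1.32e-05) in B’ vs. F’. Its F’ libraries were above its A’ libraries by little, with a Log2FC of 0.47 (standard error 0.16, FDR 0.0329). That call was lost with DESeq2 (FDR 0.0732), with the replicate number as a block (FDR 0.0557), with all 9 libraries in a joint fit (FDR 0.0811), and without A’ 2, A’ 3, F’ 1 or F’ 3, where the Log2FC was between 0.38 and 0.49. The FDR ranged from 0.0194 to 0.143 over all alternatives but the test against a Log2FC of 1. The WRKY51 locus LOC107059027 (positions 119090 to 123087, chromosome not listed) had 159, 144 and 165 in A’, 612, 949 and 1324 in B’, and 70.0, 92.6 and 97.6 in F’. This copy was below A’ in all F’ libraries, with a Log2FC of −0.83 (standard error 0.175, FDR 0.00206). In A’ vs. B’ the Log2FC was 2.63 (standard error 0.243, FDR 1.14e-05) and in B’ vs. F’ it was −3.48 (standard error 0.275, FDR 1.26e-05).

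WRKY75-like (LOC102583094) had the largest Log2FC of the family against A’, both in B’ and in F’. WRKY75 is known in Arabidopsis from phosphate starvation, root hair development and senescence. The potato gene lies between positions 6537 and 9126 of a scaffold of chromosome 5. It had raw counts of 2, 1 and 2 in A’, 66, 83 and 120 in B’, and 56, 38 and 55 in F’. Transcripts were thus nearly at 0 in A’ alone. From 5 counts in A’, the ratio was 42.9-fold (95% interval 18.2 to 133, counting error only) for B’ with 269 counts and 25.8-fold (10.8 to 80.7) for F’ with 149 counts. A Log2FC of 5.33 was fitted (standard error 0.425, FDR 3.78e-06) in A’ vs. B’ and 4.60 (standard error 0.446, FDR 2.94e-06) in A’ vs. F’. B’ and F’ differed by less, with a Log2FC of −0.74 (standard error 0.25, FDR 0.0497). This last call was lost with upper-quartile normalization (FDR 0.0669), with DESeq2 (FDR 0.0528) and without B’ 2, B’ 3 or any F’ library, where the Log2FC was between −0.80 and −0.52. Over all alternatives but the test against a Log2FC of 1, its FDR ranged from 0.029 to 0.133.

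The WRKY71 loci, named for a regulator of shoot branching and flowering time in Arabidopsis, all had their highest normalized counts in F’. LOC102593379 (positions 1030078 to 1031863 of a scaffold of chromosome 2) had 7.03, 9.80 and 9.20 normalized counts in A’, 8.33, 2.80 and 4.31 in B’, and 58.8, 64.9 and 58.0 in F’. It was too low for the test in A’ vs. B’, and F’ stood apart from both. The Log2FC was 2.79 (standard error 0.308, FDR 9.82e-06) in A’ vs. F’ and 3.52 (standard error 0.374, FDR 7.76e-05) in B’ vs. F’, the highest of the family in that comparison. LOC102602059 (positions 1562871 to 1565870 of a scaffold of chromosome 7) had 26.9, 17.4 and 11.5 in A’, 74.0, 54.1 and 92.3 in B’, and 141, 146 and 164 in F’. The groups did not overlap, with A’ the lowest and F’ the highest. The Log2FC was 1.99 (standard error 0.33, FDR 0.000783) in A’ vs. B’, 3.02 (standard error 0.256, FDR 8.24e-07) in A’ vs. F’ and 1.02 (standard error 0.208, FDR 0.00443) in B’ vs. F’. LOC102590426 had 2.34 to 25.1 normalized counts. It was higher in F’ than in A’ (Log2FC 1.89, standard error 0.46, FDR 0.00555) and did not pass in B’ vs. F’ (FDR 0.0552).

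Among the 4 genes with potato numbers, the one listed as WRKY6 (LOC102577893, positions 1729789 to 1731513 of its scaffold, chromosome not listed) had the same order of groups as WRKY70. It had 1393, 1358 and 1339 normalized counts in A’, 3722, 4546 and 6707 in B’, and 575, 362 and 566 in F’. The Log2FC was 1.88 (standard error 0.19, FDR 2.16e-05) in A’ vs. B’, −1.43 (standard error 0.157, FDR 9.5e-06) in A’ vs. F’ and −3.32 (standard error 0.25, FDR 9.93e-06) in B’ vs. F’. All B’ libraries were above and all F’ libraries below the A’ libraries, and B’ 3 was the highest. In contrast to it, the gene listed as WRKY2 (LOC102577491, positions 102537 to 103897, chromosome not listed) was among the 5 members of highest count and did not pass in any comparison. It had 2239, 2455 and 2601 normalized counts in A’, 2323, 2430 and 2136 in B’, and 2534, 2932 and 2440 in F’. Its Log2FC was −0.08 (standard error 0.117, FDR 0.656), 0.13 (standard error 0.12, FDR 0.44) and 0.19 (standard error 0.115, FDR 0.25) in the 3 comparisons in the order above.

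The 3 tested genes of group IIb were higher than A’ in both other bulks, where 16.4% (B’) and 17.5% (F’) of all genes were. In Arabidopsis, WRKY6 of this group is linked to senescence and to the response to low phosphate. WRKY6-like (LOC102605761, positions 1299535 to 1301718 of a scaffold of chromosome 2) had 36.3, 67.5 and 59.8 normalized counts in A’, 258, 250 and 266 in B’, and 258, 227 and 258 in F’. A’ alone was low, and B’ and F’ overlapped. The Log2FC was 2.24 (standard error 0.204, FDR 1.03e-05) in A’ vs. B’, 2.19 (standard error 0.199, FDR 1.63e-06) in A’ vs. F’ and −0.07 (standard error 0.123, FDR 0.725) in B’ vs. F’. The other gene of that product name, LOC102582841, was higher by a Log2FC of 0.77 in B’ (FDR 0.00273) and of 1.02 in F’ (FDR 0.000135). WRKY31 (LOC102605073) was higher by 1.63 in B’ (FDR 7.65e-05) and by 0.66 in F’ (FDR 0.0178), and unlike both it was lower in F’ than in B’ (−0.98, FDR 0.000345).

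Group IId genes carry a calmodulin-binding region in Arabidopsis, where WRKY7, WRKY11 and WRKY17 restrain basal resistance and WRKY15 is linked to growth and to osmotic stress. All 6 were tested, and 3 were higher in B’ than in A’, against 16.4% of all genes. WRKY15 (LOC102588837, positions 115556 to 118160 of a scaffold of chromosome 2) had 49.2, 50.1 and 56.4 normalized counts in A’, 210, 259 and 302 in B’, and 121, 118 and 149 in F’. The 3 groups were apart, with F’ between A’ and B’. The Log2FC was 2.32 (standard error 0.188, FDR 4.37e-06) in A’ vs. B’, 1.33 (standard error 0.192, FDR 0.000108) in A’ vs. F’ and −0.997 (standard error 0.173, FDR 0.00173) in B’ vs. F’. WRKY17 (LOC102582592) and WRKY7 (LOC102579359) were higher in B’ than in A’, by Log2FC of 1.46 (FDR 4.49e-05) and 1.45 (FDR 1.25e-05), and lower in F’ than in B’, by −1.55 (FDR 3.46e-05) and −1.26 (FDR 0.000118). Neither passed in A’ vs. F’ (FDR 0.709 and 0.32).

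WRKY11 (LOC102579016, positions 375256 to 376868 of a scaffold of chromosome 8) was one of the 5 members of highest count. It had 2331, 1821 and 1979 normalized counts in A’, 1957, 2202 and 2587 in B’, and 2706, 2627 and 2623 in F’. The A’ and B’ libraries overlapped (Log2FC 0.15, FDR 0.457), and the F’ libraries were above both. F’ against A’ gave a Log2FC of 0.39 (standard error 0.121, FDR 0.0223), a call that was lost without A’ 2, A’ 3, F’ 1 or F’ 3, at Log2FC of 0.31 to 0.39 (FDR 0.0593 to 0.11). The call was also lost in the test against a Log2FC of 1 and at the FDR threshold of 0.01. Over the other alternatives the FDR ranged from 0.00638 to 0.11. In B’ vs. F’ the Log2FC was 0.23 and did not pass (FDR 0.189). It passed without B’ 3 (Log2FC 0.34, FDR 0.0442). There the FDR ranged from 0.0442 to 0.475 over all alternatives but the test against a Log2FC of 1.

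In group I, the largest group, most genes did not pass within each comparison, which also held for all genes tested. In A’ vs. B’, 5 of 13 genes tested were higher and 1 was lower, against 16.4% and 16.5% of all genes (median Log2FC 0.42). In A’ vs. F’, 5 of 13 were higher and 0 were lower, against 17.5% and 18.2% of all genes (0.32). In B’ vs. F’, 2 of 13 were higher in F’ and 1 was lower, against 13.7% and 16.3% (0.01). WRKY26 (LOC102588093, positions 11107 to 14301, chromosome not listed), which acts in heat tolerance in Arabidopsis, had the largest Log2FC of the group in A’ vs. B’. It had 135, 199 and 221 normalized counts in A’, 822, 761 and 1324 in B’, and 188, 61.7 and 214 in F’. B’ was above the other groups, which overlapped, and library F’ 2 was the lowest. The Log2FC was 2.40 (standard error 0.236, FDR 1.79e-05) in A’ vs. B’ and −2.65 (standard error 0.371, FDR 0.000471) in B’ vs. F’. F’ against A’ gave −0.24 (standard error 0.329, FDR 0.61), and 0.12 without F’ 2. WRKY33 (LOC102591436), which in Arabidopsis drives camalexin synthesis against necrotrophic fungi, was higher in F’ than in A’, with a Log2FC of 1.205 (standard error 0.233, FDR 0.00113). Against A’, B’ had a Log2FC of 0.65 that did not pass (FDR 0.0902).

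WRKY44 (LOC102603993, positions 1703285 to 1707730 of a scaffold of chromosome 10), also of group I, was 1 of the 2 WRKY genes lower in B’ than in A’. Its Arabidopsis namesake, also called TTG2, acts in trichomes and the seed coat. The potato gene had 21.1, 39.2 and 19.6 normalized counts in A’, 11.1, 8.39 and 6.90 in B’, and 51.4, 38.3 and 41.5 in F’. B’ was below both other groups. The Log2FC was −1.59 (standard error 0.396, FDR 0.00968) in A’ vs. B’ and 2.30 (standard error 0.332, FDR 0.000553) in B’ vs. F’. In A’ vs. F’, where library A’ 2 reached into the range of F’, it was 0.72 (standard error 0.316, FDR 0.0895). Without A’ 2 the A’ vs. B’ value was −1.19 and did not pass (FDR 0.0681), while the A’ vs. F’ value was 1.11 and passed (FDR 0.0289). The A’ vs. B’ call was also lost in the test against a Log2FC of 1 (FDR 0.35). Over the alternatives without that test, the FDR ranged from 0.00518 to 0.0681 in A’ vs. B’ and from 0.0289 to 0.288 in A’ vs. F’.

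The other gene lower in B’ was WRKY65 of group IIe (LOC102597639, positions 701285 to 703062 of a scaffold of chromosome 1). It had 1167, 1018 and 991 normalized counts in A’, 751, 763 and 807 in B’, and 1059, 1104 and 1176 in F’. B’ was below all other libraries by a small amount. The Log2FC was −0.44 (standard error 0.115, FDR 0.0116) in A’ vs. B’ and 0.52 (standard error 0.104, FDR 0.00409) in B’ vs. F’, while it was 0.08 in A’ vs. F’ (FDR 0.602). The A’ vs. B’ call was lost without B’ 2, at the same Log2FC of −0.44 (FDR 0.052). It was also lost in the test against a Log2FC of 1 and at the FDR threshold of 0.01. Over the other alternatives the FDR ranged from 0.00518 to 0.052. Group IIe also holds WRKY22 and WRKY29, known from flagellin signalling in Arabidopsis. None of its other 3 tested genes passed in A’ vs. B’ or A’ vs. F’, where 32.9% and 35.6% of all genes passed in either direction. WRKY22-like (LOC107062867) was lower in F’ than in B’ (Log2FC −1.12, FDR 0.00627).

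WRKY1-like of group I (LOC102596618, positions 311880 to 317057 of a scaffold of chromosome 7) was highest in F’. It had 35.1, 37.0 and 54.1 normalized counts in A’, 48.1, 53.2 and 50.9 in B’, and 79.4, 87.3 and 98.5 in F’. The A’ and B’ libraries overlapped (Log2FC 0.28, FDR 0.429). The Log2FC was 1.08 (standard error 0.233, FDR 0.00247) in A’ vs. F’ and 0.79 (standard error 0.196, FDR 0.0123) in B’ vs. F’. The latter call was lost without F’ 3 (Log2FC 0.71, FDR 0.0597). Over all alternatives but the test against a Log2FC of 1, its FDR ranged from 0.0104 to 0.0597.

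Of the 61 members, 6 were not tested in any comparison because they had at most 14 counts in a library. These were WRKY45 (LOC102581569), WRKY29 (LOC102581711), WRKY9 (LOC102582089), WRKY48 (LOC102583101), WRKY72 (LOC102600617) and the WRKY40 locus named above. In the fit without the filter on low counts, 1 of them passed. WRKY72 had raw counts of 1, 2 and 1 in A’, 4, 8 and 14 in B’ and 9, 1 and 4 in F’, and its Log2FC in A’ vs. B’ was 2.27 (standard error 0.756, FDR 0.0382). In that fit WRKY30 (LOC102587289), too low for the filtered test of A’ vs. B’, also passed there (Log2FC 2.36, FDR 0.0328). A gene that the rule leaves out, STWRKY8, is listed as a double WRKY type transfactor. Its normalized counts were 2251, 2831 and 2814 in A’, 5341, 5000 and 6505 in B’, and 2676, 1668 and 2484 in F’. It was higher in B’ than in A’ (Log2FC 1.10, standard error 0.143, FDR 0.000141) and lower in F’ than in B’ (−1.31, standard error 0.182, FDR 0.000442), with A’ and F’ overlapping.

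WRKY factors work with other proteins, and the genes of these were counted by product name. VQ proteins bind WRKY factors of groups I and IIc. Of 9 VQ genes tested in A’ vs. B’, 5 were higher and 0 were lower (55.6% and 0.0%, against 16.4% and 16.5% of all genes), and the median Log2FC was 0.77. Against A’, F’ had 2 higher genes and 1 lower gene (22.2% and 11.1%, against 17.5% and 18.2%), near the shares of all genes. In B’ vs. F’ 1 was higher in F’ and 4 were lower (11.1% and 44.4%, against 13.7% and 16.3%). A VQ motif-containing protein 22-like gene (LOC107058125) had the largest difference, with 8.20, 1.09 and 1.15 normalized counts in A’ and 32.4, 35.4 and 44.0 in B’ (Log2FC 3.41, FDR 0.000482). Sigma factor binding protein 2 (LOC107060694), whose Arabidopsis relatives bind WRKY33, had 980, 1234 and 1799 in B’ and 292, 166 and 326 in F’ (−2.36, FDR 0.000135).

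MAP kinases phosphorylate WRKY factors. Of 44 genes of the MAP kinase cascade tested in A’ vs. B’, 12 were higher and 4 were lower (27.3% and 9.1%, against 16.4% and 16.5% of all genes), and the median Log2FC was 0.13. In A’ vs. F’ 5 were higher and 6 lower (11.4% and 13.6%, against 17.5% and 18.2%). In B’ vs. F’ 7 of 45 were higher in F’ and 10 lower (15.6% and 22.2%, against 13.7% and 16.3%). The called genes of highest and lowest Log2FC in A’ vs. B’ were LOC102590361 (1.585, FDR 0.0196) and LOC102589598 (−1.90, FDR 0.000119). In A’ vs. F’ they were LOC102590770 (1.10, FDR 9.73e-06) and LOC102597525 (−1.57, FDR 0.000259). In B’ vs. F’ the highest was LOC102580254 (1.38, FDR 0.0237), which is listed as a MAP kinase-binding protein and not as a kinase. The lowest there was MAP kinase 3-like (LOC102585585), a kinase of defence signalling in Arabidopsis. It had 3296, 3265 and 3843 normalized counts in B’ and 934, 833 and 897 in F’ (Log2FC −1.97, FDR 2.66e-06).

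Genes of salicylic acid signalling, upstream and downstream of WRKY factors, differed in either direction. Of 37 tested in A’ vs. B’, 18 were higher and 4 were lower (48.6% and 10.8%, against 16.4% and 16.5% of all genes), with a median Log2FC of 0.40. Of 35 tested in A’ vs. F’, 10 were higher and 5 were lower (28.6% and 14.3%, against 17.5% and 18.2%). In B’ vs. F’, 5 of 36 were higher in F’ (13.9%, near the 13.7% of all genes) and 15 were lower (41.7% against 16.3%). SAR DEFICIENT 1-like (LOC102604313), named for a factor that induces salicylic acid synthesis in Arabidopsis, had 9.37, 12.0 and 1.15 normalized counts in A’ and 160, 168 and 254 in B’ (Log2FC 4.67, FDR 6.15e-06). Regulatory protein NPR5-like (LOC102596778) had 53.9, 90.4 and 59.8 in A’ and 32.4, 25.2 and 24.2 in B’ (−1.31, FDR 0.00368). NPR5 is known in Arabidopsis as BLADE-ON-PETIOLE 2, a gene of leaf and flower patterning, although it shares its name with the salicylic acid receptors. The largest difference of the list was that of salicylate carboxymethyltransferase-like (LOC102578543), whose product class methylates salicylic acid. It had 251, 160 and 268 normalized counts in A’, 150, 161 and 116 in B’, and 0.93, 1.06 and 0 in F’, so that its transcripts were at the floor of 3 counts in F’ alone.

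Pathogenesis-related protein 1, the usual marker of salicylic acid responses, is a family of several genes. Of 9 genes tested in A’ vs. B’, 5 were higher and 3 were lower (55.6% and 33.3%, against 16.4% and 16.5% of all genes). In A’ vs. F’ 2 were higher and 2 lower (22.2% each, near the 17.5% and 18.2% of all genes), and in B’ vs. F’ 2 were higher in F’ and 4 lower (22.2% and 44.4%, against 13.7% and 16.3%). Pathogenesis-related leaf protein 4 (LOC102599140) had 21.1, 12.0 and 27.6 normalized counts in A’ and 138, 150 and 165 in B’ (Log2FC 2.91, FDR 9.48e-06). The PR-1-like gene LOC102581167 had 618, 555 and 691 in A’ and 146, 153 and 128 in B’ (−2.12, FDR 1.04e-06). The list of senescence-associated products held only 4 tested genes. Of these, 3 were higher in B’ than in A’ and 0 lower (75.0% and 0.0%, against 16.4% and 16.5% of all genes). In A’ vs. F’ 0 passed, against 35.6% of all genes in either direction. In B’ vs. F’ the same 3 were lower in F’ and 0 were higher (75.0% and 0.0%, against 16.3% and 13.7%). All 3 are listed as senescence-associated carboxylesterase 101-like, known in Arabidopsis as SAG101, which works with EDS1 and PAD4 in immunity. LOC107062546 among them had 50.4, 33.7 and 50.6 normalized counts in A’ and 316, 361 and 355 in B’ (Log2FC 2.95, FDR 6.25e-07). Without library B’ 3, the higher and lower genes in A’ vs. B’ were 5 and 0 for VQ proteins, 12 and 5 for the MAP kinase cascade, 17 and 4 for salicylic acid signalling, 6 and 3 for pathogenesis-related protein 1, and 3 and 0 for the senescence list. Of all genes, 16.4% were higher and 17.0% lower in that fit.

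**Figure D4:**
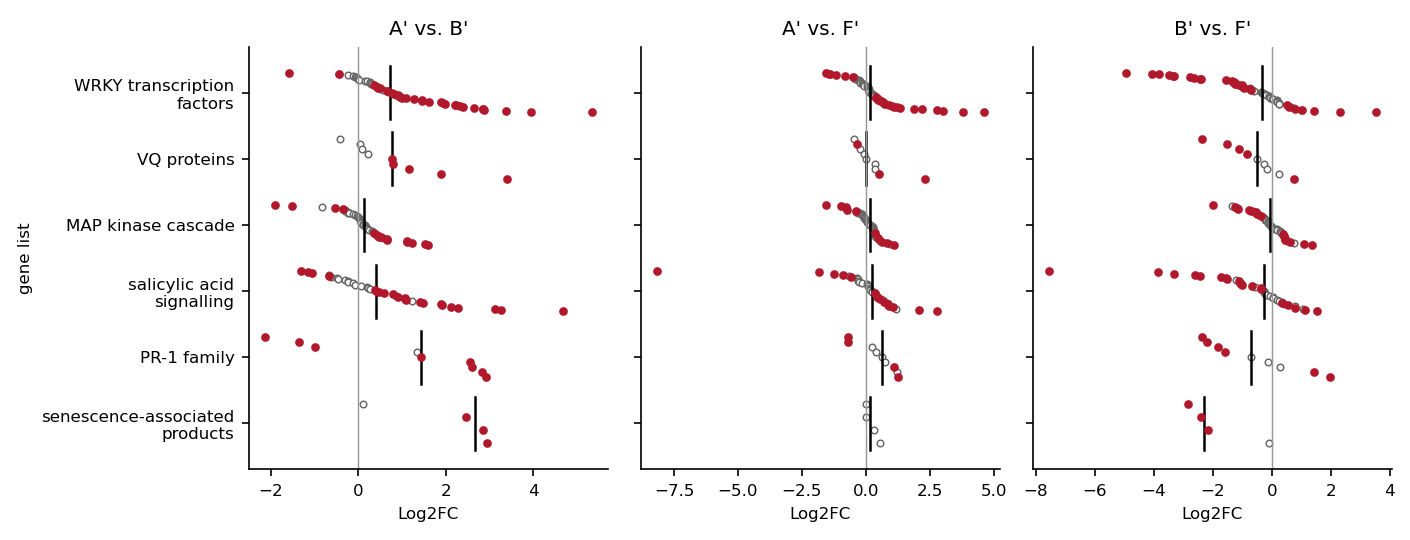
Log2FC of the WRKY genes and of 5 lists of related genes (rows), each tested gene being a point, in the 3 comparisons; filled points have an FDR under 0.05, vertical bars are the median of a list, and the height of a point within a row only orders the genes. The WRKY median is 0.72 in A’ vs. B’, 0.17 in A’ vs. F’ and −0.35 in B’ vs. F’, and the MAP kinase row is centred near 0 in all 3 panels.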

How the data were processed

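RNA from the leaf bulks was poly(A)-selected and sequenced from directional libraries, 3 per bulk, on the BGISEQ-500 platform. The authors deposited raw counts of reads per gene as whole numbers for A’ vs. B’ and A’ vs. F’, and genes with fewer than 5 counts in total over a comparison are not listed. The submitters’ processing notes name Bowtie2 2.1.0, TopHat2 2.0.9 and DESeq2; the tool that counted reads is not given in the sources used here. The deposited normalized counts, fold changes, standard errors and p-values of the authors were not used. Coordinates are those of the files, and all 61 members matched the RefSeq table of assembly SolTub_3.0, 57 of them with the same span. A product name was missing for 1018 genes, which the rule cannot find.

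Each pair of groups was fitted with edgeR 4.0.16 in R 4.3.3 (filterByExpr, TMM normalization, robust quasi-likelihood test) on all genes of the comparison. B’ vs. F’ used the 22988 genes listed in both. P-values were adjusted over all genes tested by the Benjamini-Hochberg method, and all FDR values are from this test unless another is named. Genes called had an FDR under 0.05, and the cutoff added a Log2FC of 2 or more in size. The fits were tested on simulated data with 200 changed genes. Normalized counts were scaled by TMM over the 9 libraries to the mean effective library size. Whether the libraries of a group were all above or all below was read from these for WRKY genes. For the shares of all genes set beside them, TMM scaling within each comparison was used. Transcript lengths were not used, so levels of different genes are not compared per length. Counting intervals are exact 95% intervals.

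The members and lists were chosen with earlier results of these data known. Named in full are members past the cutoff in any comparison, the 5 with the largest and the 5 with the smallest Log2FC among those called in each comparison, the 5 with the highest mean normalized count, and those called with opposite signs in B’ and F’ against A’, 22 in all. Other members and related genes are examples chosen after their values were seen, except that a list’s called members of highest and of lowest Log2FC were fixed as its examples. Alternatives were RLE and upper-quartile normalization, a replicate block, DESeq2 1.42.0, a stricter FDR threshold of 0.01, glmTreat against a Log2FC of 1, a joint fit of all 9 libraries, every gene with at least 1 count, and the omission of single libraries. FDR ranges over alternatives leave out the test against a Log2FC of 1. Calls lost in that test or at the FDR threshold of 0.01 are not all named beside the genes. No 2 libraries of a group held the same counts within sampling noise.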

Additional observations from a re-analysis of the deposited data

Results flagged for a closer look

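For 6 of 51 WRKY genes tested in both comparisons with A’ (11.8%), B’ was called higher and F’ lower than the same A’ libraries, while this held for 1.54% of 18673 genes in all. The genes were chosen by these calls, so their difference between B’ and F’ follows from the choice and is given as a description. The Log2FC in B’ vs. F’ was −4.93 for the WRKY40 locus LOC102599114 and −4.05 for its neighbour LOC102600986, which are 16.4 kb apart. It was −3.48 for the WRKY51 locus LOC107059027, −3.35 for WRKY70 (LOC102581335) and −3.32 for the potato gene listed as WRKY6 (LOC102577893). For the WRKY40 locus LOC102580885 it was −1.32. Omitting single libraries gave ranges of −5.12 to −4.53, −4.21 to −3.83, −3.72 to −3.18, −3.48 to −3.19, −3.49 to −3.05 and −1.40 to −1.18 in the same order. The leaf genes of RuBisCO and chlorophyll binding differed between the bulks as well, as given above, and their part was not tested.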

How the results depend on the processing

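Shares of all genes are given only for the main test and the fit without B’ 3. The counts below therefore show how WRKY calls moved, not whether they exceeded the shares of all genes. A test against a Log2FC of 1 lowered the counts of called WRKY genes from 30 to 16 higher and from 2 to 0 lower in A’ vs. B’, from 19 to 5 and from 6 to 2 in A’ vs. F’, and from 7 to 2 higher and from 23 to 10 lower in B’ vs. F’. An FDR threshold of 0.01 left 1 lower in A’ vs. B’, 11 higher in A’ vs. F’ and 4 higher in B’ vs. F’. Leaving out each library in turn gave 27 to 32 higher and 1 to 2 lower in A’ vs. B’, 13 to 20 higher and 5 to 6 lower in A’ vs. F’, and 4 to 10 higher and 21 to 23 lower in B’ vs. F’. The count of 2 lower in A’ vs. B’ fell to 1 without A’ 2 or without B’ 2, and the 7 higher in B’ vs. F’ fell to 4 without F’ 3. Normalization, filter, DESeq2 and a joint fit moved no count by over 1.5 times. With the replicate block, higher and lower genes numbered 29 and 2 (A’ vs. B’), 16 and 6 for F’ against A’, and 7 and 25 for F’ against B’. Whether the numbers pair the samples is not known. Deviations from the group means correlated between −0.25 and 0.34 for same-numbered libraries and between −0.45 and 0.32 for differently numbered ones. These values constrain each other, since each deviation is taken from the mean of its own group, so they cannot decide the question.

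The 63 values of named genes kept direction and call in 823 of 882 alternative values. Calls were lost in 20 values in the test against a Log2FC of 1 and in 7 at the FDR threshold of 0.01. The sign turned in 3, none of them called: in A’ vs. F’ the Log2FC of LOC102588093 was 0.12 without F’ 2 (range over single omissions −0.55 to 0.12), that of LOC102590949 was −0.22 without A’ 1 (−0.22 to 0.32), and that of LOC102604232 was −0.046 without F’ 3 (−0.046 to 0.29). The cause was not tested. With 3 libraries a group, genes of few counts carry wide errors.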

Other observations

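Further loci that share a product name were compared. For the WRKY30 loci, LOC102605179 had 453, 436 and 450 normalized counts in A’, 795, 784 and 1018 in B’, and 398, 321 and 389 in F’, with a Log2FC of 0.96 in A’ vs. B’ (FDR 0.000203) and −1.24 in B’ vs. F’ (FDR 0.000136), while LOC102587289 was highest in F’ as given above. For the WRKY21 loci, LOC102588457 was higher in F’ than in A’ (Log2FC 0.92, FDR 0.000395) and LOC102585500 did not pass (0.33, FDR 0.42). The WRKY48 locus LOC102588384 was lower in F’ than in B’ (Log2FC −1.33, FDR 0.0304), and the other WRKY48 locus was too low for a test. The pair of WRKY20 loci passed in none of the 3 comparisons, with between 605 and 1143 normalized counts over all libraries. These genes were chosen after their values were seen.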
